A study of Mus musculus with 10 samples.

Results

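The genes described here encode the proteins of the mitochondrial ribosome, measured in hearts of mouse embryos in which some cells lack cytochrome c haem lyase. The family was chosen with earlier results of these data known. Members were taken by name, as symbols of the form Mrps or Mrpl plus a number on array probe sets that carry 1 gene symbol. This gave 76 of the 18193 genes measured, 29 Mrps genes and 47 Mrpl genes, read by 156 probe sets, and the brightest probe set stood for each gene. Gene expression was compared between 5 pools of control hearts and 5 pools of hearts with a heterozygous, heart-conditional Hccs knockout, all from female littermates at 13.5 days post coitum. Each pool held 4 to 5 whole hearts of 1 genotype and was run on 1 Affymetrix array. Hccs is X-linked and 1 X chromosome is silenced in each female cell, so a heterozygous heart holds deficient and healthy cells side by side. The promoter behind the heart-specific deletion is not named in the sources used here. In RNA from whole hearts, fewer cells of a type and less RNA per cell cannot be told apart.

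The mitochondrial ribosome translates the few proteins that mitochondrial DNA encodes, all of them core subunits of the respiratory chain and of ATP synthase. Its RNAs are made inside the organelle, while its proteins are encoded in the nucleus, made in the cytosol and imported. Some of them have counterparts in the bacterial ribosome and others occur only in mitochondria. The names follow the subunit with exceptions: Mrps18a and Mrps30 are known to sit in the large subunit, and Mrps36 has been assigned to the oxoglutarate dehydrogenase complex. By place, 26 members belong to the small subunit, 49 to the large subunit and 1 to neither.

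The promoters of the genes that passed the test are shown because nuclear genes of mitochondria are known for sites of a few shared regulators, among them NRF1, the ETS family factor GABP and YY1. Of the 4 such genes, Mrps9, Mrps23 and Mrpl9 had a promoter listed by RefSeq (GRCm38.p6), as did 67 members in all. Each line runs 5′ to 3′ from 100 bases before the annotated start to 30 bases after it, on the plus strand. Capitals mark matches on either strand to an NRF1 motif (GCGCA, any base, then GCGC), an ETS motif (CCGGAA) or a YY1 motif (ATGGCG). Shorter forms of these motifs were not counted.
Mrps9, chr1:42851133-42851262: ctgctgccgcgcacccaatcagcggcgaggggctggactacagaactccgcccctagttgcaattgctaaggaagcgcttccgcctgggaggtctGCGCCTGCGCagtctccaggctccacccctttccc
Mrpl9, chr3:94443236-94443365: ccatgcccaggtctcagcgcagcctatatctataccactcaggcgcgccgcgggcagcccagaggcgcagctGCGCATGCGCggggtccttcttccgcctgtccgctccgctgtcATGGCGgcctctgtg
Mrps23, chr11:88204288-88204417: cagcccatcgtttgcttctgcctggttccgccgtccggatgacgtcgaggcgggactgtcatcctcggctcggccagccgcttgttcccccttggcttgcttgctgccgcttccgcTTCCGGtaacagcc
The NRF1 match of Mrps9 straddles the annotated start, that of Mrpl9 lies before it, and the YY1 match of Mrpl9 and the ETS match of Mrps23 lie just after it.

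Over the full 300-base windows, 51 of the 67 members held at least 1 of these motifs, a share of 76.1%. The share was 37.9% over the 14452 measured genes with a listed promoter. A gene counted if any of its promoters matched. More than 1 promoter was listed for 3 of the 67 members and for 2661 of the 14452 measured genes. The ETS motif was found in 38 members, or 56.7%, against 24.1% of measured genes. The NRF1 motif was found in 12 members, or 17.9%, against 8.61%, and the YY1 motif in 17, or 25.4%, against 14.1%. The YY1 motif lay before the annotated start only in Mrps11, Mrps12 and Mrpl36. In the rest of these 17 it lay after the start, in transcribed sequence. Median GC content was close, at 58.0% in members and 58.7% in measured genes. The median log2 change in the knockout was 0.036 in the 38 members with the ETS motif and 0.054 in the 29 without it. With and without the NRF1 motif it was 0.025 and 0.049, and with and without the YY1 motif 0.061 and 0.042. A match is a run of letters and was not tested as a binding site.

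The 76 genes were all read as bright signals. Their mean log2 signals ran from 8.79 to 13.61 with a median of 10.90, against a median of 6.50 over all genes. Probe sets differ in how strongly they bind, so these values do not rank the genes by transcript number. The 3 brightest were Mrpl42 (13.61), Mrpl51 (13.37) and Mrpl39 (12.98), all proteins of the large subunit without a bacterial counterpart. The 3 dimmest were Mrps11 (8.79), the counterpart of bacterial S11, Mrpl14 (8.89), the counterpart of L14, and Mrps5 (8.99), the counterpart of S5.

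Hccs itself checked the labels. Its brighter probe set read 11.11, 11.31, 11.28, 11.20 and 11.25 in control replicates 1 to 5 and 10.81, 10.73, 10.90, 10.57 and 10.39 in the knockouts. Every knockout pool lay below every control pool, a decrease of 31.7% (limma adjusted p = 0.0225, exact two-sided permutation p = 0.00794, n = 5 each, the smallest that this design allows). The dimmer Hccs probe set, at 8.98, was 24.3% lower, also without overlap. It did not pass when all probe sets were tested (limma adjusted p = 0.0936), while the brighter one did (0.027). Over all genes, 297 rose and 172 fell at an adjusted p of 0.05, together 2.58%. Cardiomyocyte transcripts were bright, and their mean log2 signal over 10 markers was lower in every knockout pool (14.39 to 14.61) than in any control pool (14.66 to 14.93). The 7 endothelial markers ranged from 9.45 to 9.70 in controls and from 9.38 to 9.54 in knockouts, the 8 epicardial and fibroblast markers from 11.43 to 11.70 and from 11.49 to 11.78, and the 4 smooth muscle markers from 10.81 to 11.51 and from 11.08 to 11.23. The 5 macrophage markers ranged from 7.28 to 7.59 in controls and from 7.25 to 7.66 in knockouts, and the 6 erythroid markers from 9.78 to 10.65 and from 9.79 to 10.33. Of single markers, Myl2 and Myh7, which encode cardiomyocyte myosin chains, fell, and Tcf21, an epicardial and fibroblast factor, rose by 1.52-fold (limma adjusted p = 0.0376). Kdr, Tie1 and Cdh5 of the endothelial list had log2 changes of -0.46, -0.31 and -0.29 that did not pass in limma. Each had an unadjusted limma p under 0.05. The same list held Nfatc1 at -0.20 and, with positive values, Emcn (0.13), Pecam1 (0.030) and Tek (0.023). Of the 8 epicardial and fibroblast markers, Tcf21 among them, 6 had a positive log2 change. The other 2 were negative, Col1a1 (-0.31) and Postn (-0.10). Single markers were named after their values were seen. The part of cell composition in the results below was not tested. Control replicate 3 stood apart in Tubb3, a neuronal tubulin, at 8.02 against 3.19 to 5.30 in the other controls, and in the 18S ribosomal RNA 5′ control, at 8.06 against 9.88 to 11.4. In the knockouts that 18S signal ranged from 7.84 to 8.57 (exact permutation p = 0.0238, n = 5 each).

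Of the 76 mitochondrial ribosomal protein genes, 4 rose in the knockout hearts, none fell and 72 did not pass. Those that rose were Mrps9, Mrps23, Mrpl9 and Mrpl15, by 1.32-fold, 1.30-fold, 1.24-fold and 1.15-fold. The 4 make 5.26% of the members, against 2.58% of all genes called in either direction, 1.63% of all genes called higher and 2.97% of the 5524 genes at least as bright as the dimmest member. None of the members fell, against 0.945% of all genes and 2.21% of those bright genes. Without adjustment, limma gave a p under 0.05 to 20 members in the higher direction (26.3%) and 2 in the lower (2.63%), against 13.2% and 7.48% of all genes and 17.5% and 14.8% of the bright genes. The count did not hold with fewer arrays. It was 0 without any 1 of control replicates 1 to 4 or knockout replicates 2 to 5, 0 without both arrays numbered 3, 2 without control replicate 5 and 6 without knockout replicate 1.

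Mrps9 is the counterpart of bacterial S9, a protein of the head of the small subunit. Its log2 signal was 10.51, 10.74, 10.46, 10.57 and 10.69 in control replicates 1 to 5 and 10.74, 11.04, 11.00, 11.11 and 11.08 in knockout replicates 1 to 5. The groups met only at the highest control and the lowest knockout, which read the same to 2 decimals. The log2 change was 0.40 (SE 0.0802, 95% interval 0.22 to 0.58, limma adjusted p = 0.0363 over all genes).

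Mrps23 is a small-subunit protein without a bacterial counterpart. The controls read 10.79, 10.90, 10.80, 10.98 and 11.00, and the knockouts 11.06, 11.35, 11.23, 11.50 and 11.24. All knockouts lay above all controls, with knockout replicate 1 nearest to them. The log2 change was 0.38 (SE 0.0806, 95% interval 0.20 to 0.56, limma adjusted p = 0.0442).

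Mrpl9 is the counterpart of bacterial L9. The controls read 10.35, 10.54, 10.41, 10.61 and 10.54 and the knockouts 10.74, 10.79, 10.96, 10.80 and 10.69, again without overlap. The log2 change was 0.31 (SE 0.0647, 95% interval 0.16 to 0.45, limma adjusted p = 0.0429).

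Mrpl15 is the counterpart of bacterial L15 and had the smallest change of the 4 and the tightest values. The controls read 11.82, 11.99, 11.94, 11.93 and 12.03 and the knockouts 12.12, 12.11, 12.15, 12.17 and 12.16. The knockout pools spanned a narrower range than the controls and lay wholly above them. The log2 change was 0.20 (SE 0.0409, 95% interval 0.11 to 0.29, limma adjusted p = 0.0382).

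**Figure D1:**
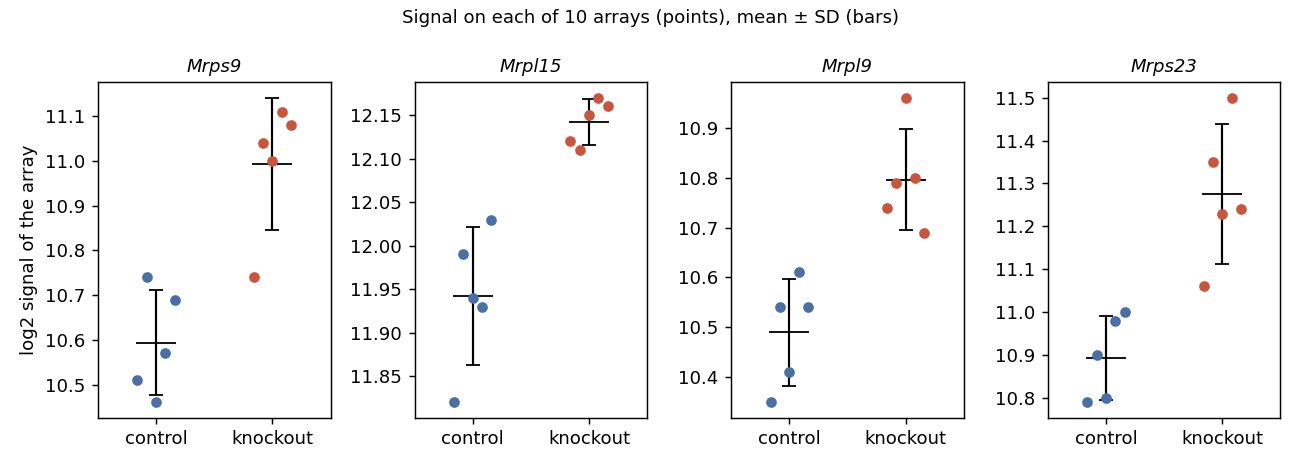
Log2 signal (vertical axis, a separate range in each panel that does not start at 0) of Mrps9, Mrpl15, Mrpl9 and Mrps23 on the 5 control and 5 knockout arrays, with each point 1 pool and the bar the mean ± SD. The knockout points of Mrps23, Mrpl9 and Mrpl15 lie above all control points, while the lowest knockout of Mrps9 reads 10.74, as does its highest control.

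The groups did not overlap for 6 members, all with the knockouts higher, which is 7.89% of members against 3.86% of all genes (5.79% in either direction) and 5.12% of the bright genes. The lower direction held 0 members, against 1.92% of all genes and 4.33% of the bright genes. The further 2 were Mrpl20, the counterpart of bacterial L20, and Mrps15, that of S15, which did not pass the adjusted test (Mrps15 was named after its values were seen). Mrpl20 read 10.85, 10.73, 10.53, 10.67 and 10.73 in controls and 10.90, 11.03, 10.92, 10.90 and 11.00 in knockouts (log2 change 0.25, SE 0.0581, limma adjusted p = 0.0553). Mrps15 read 10.64, 10.76, 10.90, 10.80 and 10.90 in controls and 11.14, 11.08, 11.04, 10.94 and 10.96 in knockouts (0.24, SE 0.0606, limma adjusted p = 0.0736). Both sets of knockouts began just above the highest control.

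Other large positive values did not pass. Mrpl1, the counterpart of bacterial L1, reached 0.31 on the log2 scale (SE 0.0853, limma adjusted p = 0.0856), with controls from 9.01 to 9.32 and knockouts from 9.26 to 9.69. Mrpl21, the counterpart of L21, had 0.27 (SE 0.0872, limma adjusted p = 0.134), and its groups overlapped as well. The bright Mrpl51 had 0.21 (SE 0.0713), with 3 controls from 13.35 to 13.42 and the other two at 13.11 and 13.10, while the knockouts ranged from 13.41 to 13.52.

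At the other end of the order, no member passed. Mrpl23, the counterpart of bacterial L23, which lines the peptide exit tunnel, had the lowest value, -0.18 (SE 0.0551, 95% interval -0.31 to -0.059, limma adjusted p = 0.113). It read 11.88, 11.91, 11.77, 11.87 and 12.02 in controls and 11.79, 11.80, 11.61, 11.70 and 11.64 in knockouts, so control replicate 3 lay among the knockouts. Mrpl58, a peptidyl-tRNA hydrolase that frees stalled mitochondrial ribosomes, had -0.15 (SE 0.0456, limma adjusted p = 0.109), with controls from 11.77 to 11.94 and knockouts from 11.64 to 11.81. After quantile normalization of the deposited values Mrpl58 passed in the lower direction, with a log2 change of -0.19 and a limma adjusted p of 0.0411. The next were Mrpl34 (-0.10), Mrpl28 (-0.067), Mrpl14 (-0.065) and Mrpl22 (-0.061), all counterparts of bacterial proteins, and the 95% intervals of these 4 included 0.

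**Figure D2:**
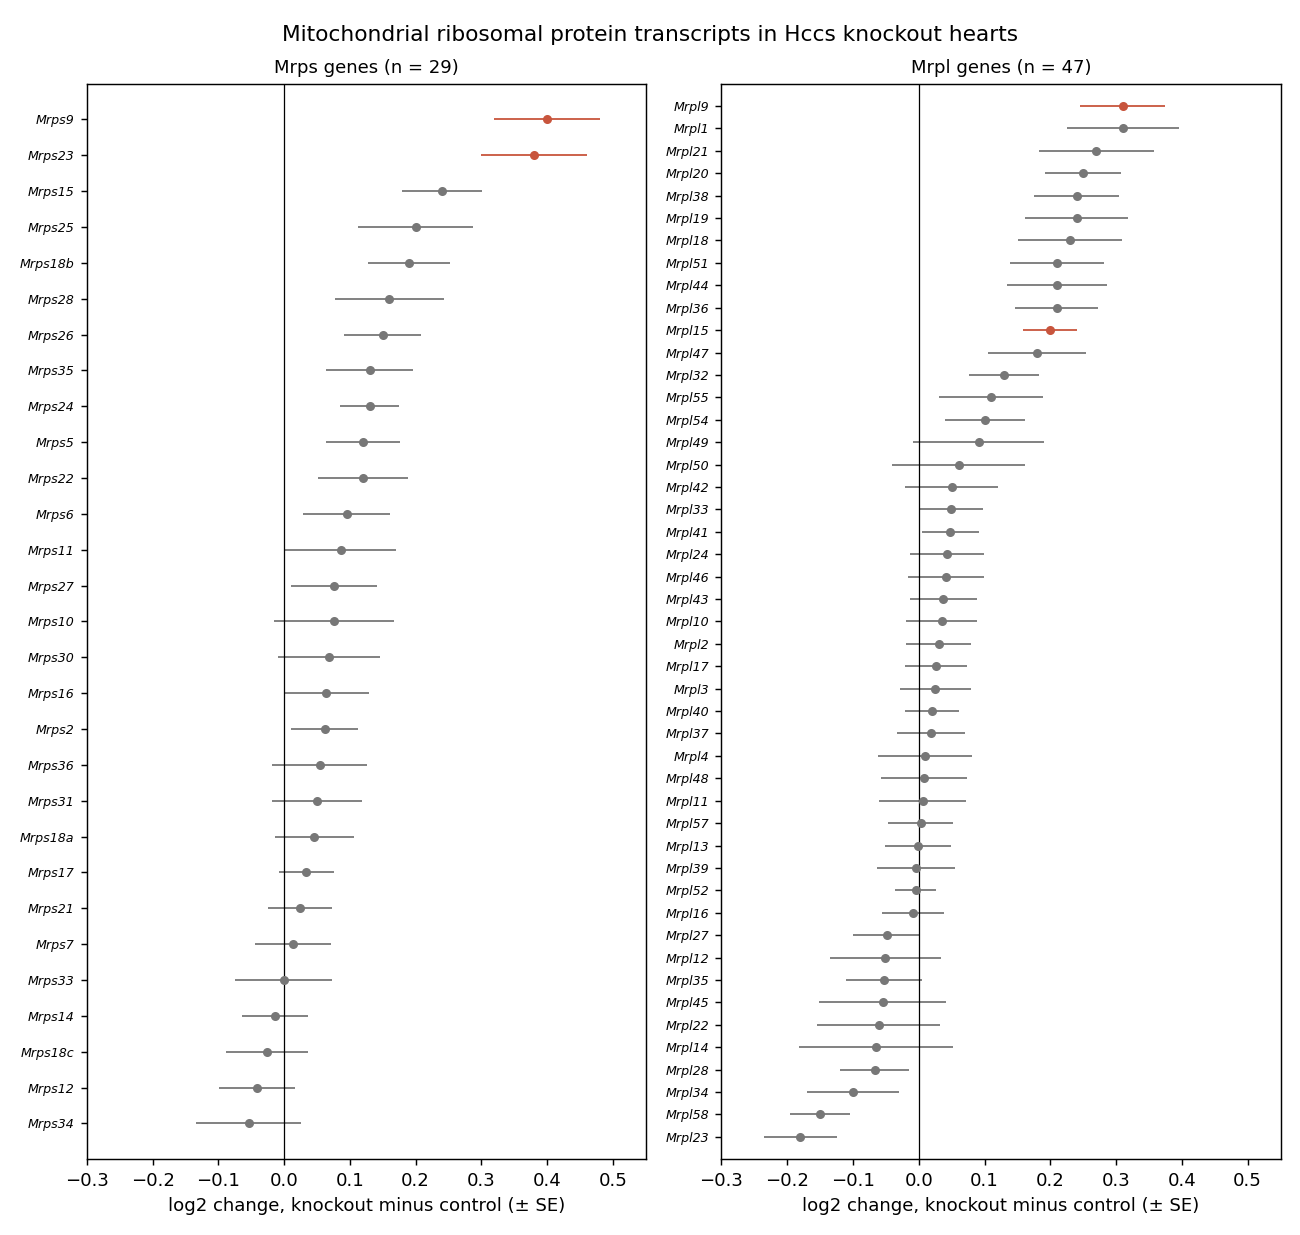
Log2 change, knockout minus control, with its standard error (horizontal axis) for the 29 Mrps genes at left and the 47 Mrpl genes at right, in order of the change, with genes past an adjusted p of 0.05 in red. The values run from -0.18 for Mrpl23 to 0.40 for Mrps9, and 57 of 76 lie above 0.

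Across the members 57 log2 changes were positive and 19 negative, so 75% were positive, against 60.5% of all genes and 50.8% of the bright genes. The median was 0.049, with quartiles of 0.0022 and 0.14. All genes had a median of 0.025 and the bright genes one of 0.0032. The 95% interval of a single member had a median half-width of 0.14.

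The small-subunit proteins by place had a median log2 change of 0.081, with 21 of 26 positive and 2 that rose. Those of the large subunit had a median of 0.037, with 35 of 49 positive and 2 that rose. The 45 counterparts of bacterial proteins had a median of 0.043 and 3 that rose, Mrps9, Mrpl9 and Mrpl15. The 30 proteins classed as specific to mitochondria had 0.050 and 1 that rose, Mrps23. That class includes Mrps18a and Mrps18b, although both are related to bacterial S18. The 38 brighter members had a median of 0.028 and the 38 dimmer ones 0.088, with 2 that rose in each. Spearman's rho between level and log2 change was -0.27 over the 76 genes, against -0.053 over all genes, and is given as a description, since genes measured on the same arrays are not independent. The genes are short, with a median span of 7.69 kb in RefSeq against 20.3 kb for all genes, and the rho between span and change was 0.15. None of these groups was tested against the others.

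Single arrays also differed in the typical level of the members. The median deviation of the 76 genes from their own means was -0.056, -0.026, -0.15, -0.016 and 0.083 log2 units in control replicates 1 to 5. In the knockouts it was 0.034, 0.051, -0.018, 0.058 and 0.046. Control replicate 5 was the highest of all arrays and control replicate 3 the lowest, and the groups overlapped. Control replicate 3 is the array that also stood apart in Tubb3 and the 18S control, and knockout replicate 3 was the lowest knockout. Without control replicate 3 the median log2 change of the members was 0.026, and without control replicate 5 it was 0.071. The part of these array differences in the gene results was not tested.

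**Figure D3:**
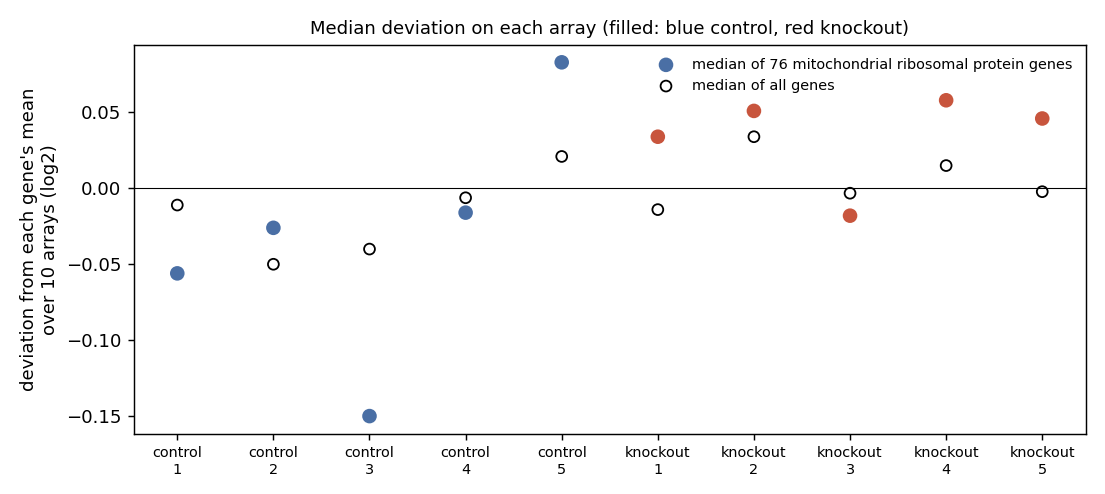
Median deviation of the 76 genes (filled points) and of all genes (open points) from each gene's mean over the 10 arrays, in log2 units on the vertical axis, for each control array (blue) and knockout array (red). The control arrays spread from -0.15 to 0.083 and the knockout arrays from -0.018 to 0.058, and the groups overlap.

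The mouse has several genes related to bacterial ribosomal protein S18, and the 3 measured here give an example of how members of 1 family compared. Mrps18a, which sits in the large subunit, read 10.29, 10.52, 10.59, 10.47 and 10.54 in controls and 10.56, 10.62, 10.43, 10.49 and 10.54 in knockouts (log2 change 0.046, SE 0.0602). Mrps18b read 9.52, 9.48, 9.25, 9.42 and 9.59 against 9.67, 9.60, 9.56, 9.68 and 9.72, with a single knockout below the highest control (0.19, SE 0.0623, limma adjusted p = 0.132). Mrps18c read 11.65, 11.55, 11.42, 11.51 and 11.75 against 11.50, 11.63, 11.49, 11.55 and 11.59 (-0.026, SE 0.0618). None of the 3 passed, and each had 1 probe set.

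Which genes passed depended on the probe set that was read. An Affymetrix gene can be read by several probe sets that bind different stretches of its transcripts, and 42 of the 76 members had more than 1. Names that end in _a_at mark probe sets shared by transcripts of 1 gene, and those in _s_at or _x_at mark probe sets that may also bind transcripts of other genes. When all 34945 probe sets with 1 symbol were tested together, 10 of the 156 member probe sets passed in the higher direction and none in the lower. That is 6.41% of them, against 1.23% of all probe sets called higher and 0.481% called lower. Only 25 of the 156 had a mean signal below the median of all values. No share was taken over probe sets of like signal. The 10 lay in 7 genes, Mrpl13, Mrpl15, Mrpl19, Mrpl3, Mrps15, Mrps5 and Mrps9, and only those of Mrpl15 and Mrps9 included the brightest one of the gene. Mrpl19 was named after its values were seen.

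Mrpl15 was higher in all of its 4 bright probe sets, of which the brightest and the next are _x_at sets. Its log2 changes were 0.20 (limma adjusted p = 0.0436), 0.16 (0.0830), 0.38 (0.00774) and 0.43 (0.00339), in order of falling signal. The last of these, at a mean signal of 10.75, read 10.46, 10.63, 10.55, 10.53 and 10.51 in controls and 10.97, 11.03, 11.02, 10.94 and 10.89 in knockouts. It had the smallest p of any member probe set, and a gap clearly wider than the spread of either group. Of 4 dimmer probe sets 3 pointed up and 1 down, none past the threshold.

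Mrpl13, the counterpart of bacterial L13, differed between its probe sets. The brightest, at 12.16, had a log2 change of -0.00074, with controls from 12.06 to 12.27 and knockouts from 12.10 to 12.22. The second, at 11.64, read 11.45, 11.57, 11.29, 11.49 and 11.28 in controls and 11.66, 11.88, 11.95, 12.04 and 11.78 in knockouts, a difference of 0.45 (SE 0.0821, limma adjusted p = 0.0351). The third, an _x_at set at 10.32, had 0.28 (limma adjusted p = 0.0271). Both of these had all knockouts above all controls, and the brightest did not.

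Mrpl3, the counterpart of bacterial L3, showed the same kind of split. Its brightest probe set, at 11.72, had a log2 change of 0.025 (SE 0.0539). The next, at 11.11, read 10.74, 11.03, 10.93, 10.92 and 10.75 in controls and 11.11, 11.30, 11.42, 11.61 and 11.32 in knockouts, which differed by 0.48 (SE 0.0939, limma adjusted p = 0.0423). Mrpl19, the counterpart of L19, had 0.24 in its brightest probe set (limma adjusted p = 0.144) and 0.40 in the next (0.0302). Mrps15 had 0.24 (0.0814) and 0.34 (0.0185), so in these 2 genes both probe sets pointed up. Mrps5 had 0.12 in its brightest (0.280), 0.31 in the second (0.0441) and -0.16 in the third (0.218).

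Of the genes that passed, Mrpl9 and Mrps9 were not uniform either. The brightest Mrpl9 probe set, an _s_at set at 10.64, had 0.31, and one of nearly the same signal, 10.53, had -0.037 (SE 0.0607), with controls from 10.48 to 10.68 and knockouts from 10.42 to 10.68. The dimmer one had 0.14 (SE 0.0972). The brightest Mrps9 probe set had 0.40, the next had 0.20 (limma adjusted p = 0.0651) and 0.13 (0.206), and the dimmest, at 4.05, had -0.48 (SE 0.207, limma adjusted p = 0.233). Mrps23 had 0.38 at 11.08, 0.039 at 8.66 and 0.47 at 5.52, and over all probe sets the first of these missed the threshold (limma adjusted p = 0.0507). The brightest Mrpl9 probe set did not pass there either, with a limma adjusted p that rounded to 0.05.

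**Figure D4:**
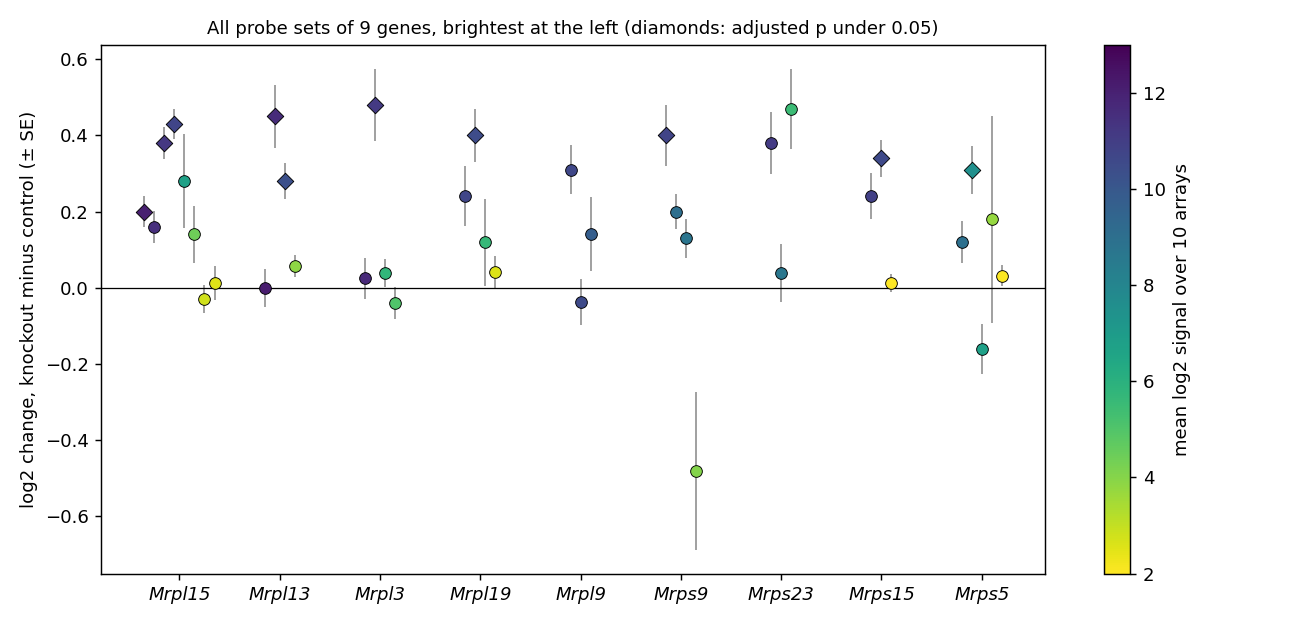
Log2 change, knockout minus control, ± SE (vertical axis) of every probe set of 9 genes, ordered within a gene from the brightest at left and coloured by mean log2 signal, with diamonds for an adjusted p under 0.05 over all probe sets. Mrpl15 has 3 diamonds, Mrpl13 has 2, and the brightest probe sets of Mrpl13 and Mrpl3 lie at -0.00074 and 0.025.

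In 18 members at least 2 probe sets were as bright as the dimmest member, 43 probe sets in all. The log2 changes within a gene differed by a median of 0.15, and by 0.45 at most, in Mrpl13 and Mrpl3. In 10 of these 18 genes all bright probe sets pointed up. Over all 42 genes with several probe sets, 23 had both signs among them, 15 of these with an unadjusted limma p under 0.05 in at least 1 probe set. Besides those described, the 15 were Mrpl1, Mrpl27, Mrpl38, Mrpl47, Mrpl51, Mrpl58, Mrps14, Mrps24 and Mrps25. In Mrps24, the counterpart of bacterial S3, the split lay between 2 _s_at probe sets of like signal, 11.32 and 11.06. Their log2 changes were 0.13 (SE 0.0449) and -0.11 (SE 0.0864). In Mrpl1, at 9.32, 8.06 and 2.81, the changes were 0.31, -0.018 and 0.057. In Mrpl27, the counterpart of bacterial L27, they were -0.049 at 12.34 and 0.20 at 7.76. In Mrpl38, Mrpl47 and Mrps25 the brightest pointed up, by 0.24, 0.18 and 0.20, and the negative values came from probe sets with signals of 3.69 or less. The 3 probe sets of Mrps14, the counterpart of bacterial S14, had -0.014, 0.063 and 0.13, in order of falling signal. Of the dimmer Mrpl51 probe sets 1 had -0.084 and 1 had 0.28, and the dimmer one of Mrpl58 had 0.070 at a signal of 2.30.

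The other genes of mitochondrial translation were taken from lists of known members. Ribosome assembly and rRNA maturation held 29 genes, of which 2 rose, against 1.63% of all genes, and 27 did not pass. Their median log2 change was 0.10, against 0.025 over all genes. Fastkd2, an RNA-binding protein needed for the large ribosomal RNA, read 10.74, 10.98, 10.86, 10.87 and 10.91 in knockouts against 10.51 ± 0.09 in controls (mean ± SD, n = 5), higher by 0.36 (SE 0.0549, limma adjusted p = 0.0197). Mettl15, a methyltransferase of the small ribosomal RNA, rose by 0.37 (SE 0.0809, limma adjusted p = 0.0481), with all knockouts above all controls. The limma call of Mettl15 was lost in 13 of 20 alternative fits (adjusted p = 0.0787 with a replicate block, 0.0562 after quantile normalization), and that of Fastkd2 in 3. C1qbp, the brightest that did not pass, had -0.14 (SE 0.0718).

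Of 15 translation factors 1 rose and 14 did not pass, against 1.63% of all genes called higher. The log2 change was positive in 14 of 15, against 60.5% of all genes, with a median of 0.16. The gene that rose was Mtrf1l, which encodes the main release factor of mitochondria. It averaged 7.84 ± 0.07 across controls and 8.16 ± 0.13 across knockouts (SD, n = 5 each), higher by 0.32 (SE 0.0651, limma adjusted p = 0.0392). This call too was lost in 13 of 20 alternative limma fits (adjusted p = 0.118 with a replicate block, 0.0588 after quantile normalization). Slirp, which binds mitochondrial messenger RNA and was the brightest, had 0.043 (SE 0.0477). Of 15 genes of mitochondrial transcription and its regulators, limma called none. The unadjusted p was under 0.05 for 6, all higher, against 13.2% of all genes in that direction, and the median was 0.17. Yy1, the brightest, had 0.12 (SE 0.0584). Ribosomal proteins with other names, together with the membrane insertase Oxa1l, made 5 genes and gave 0 calls in limma, with 0 unadjusted p under 0.05. Their median was 0.050, and Chchd1, a small-subunit protein, had 0.050 (SE 0.0487). The ribosomal and messenger RNAs of mitochondrial DNA were not analysed here.

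**Figure D5:**
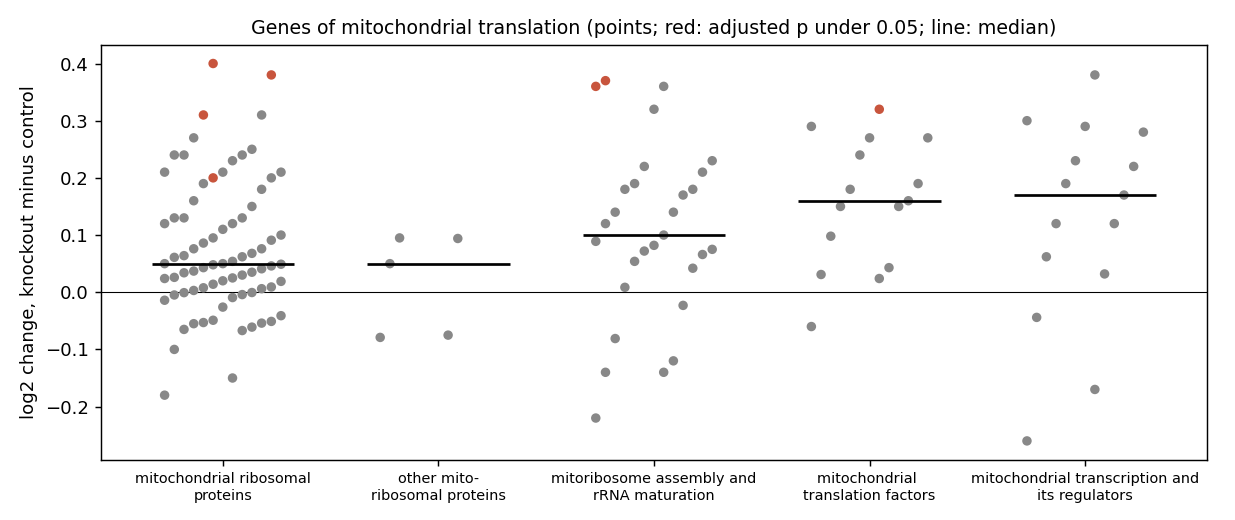
Log2 change, knockout minus control (vertical axis), of each gene (points, red where the adjusted p was under 0.05) in the 76 mitochondrial ribosomal protein genes and in 4 related lists, with a line at each median. The medians are 0.049 for the ribosomal proteins, 0.050 for those with other names, 0.10 for assembly, 0.16 for translation factors and 0.17 for transcription.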

How the data were processed

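The authors deposited log2 signals for each probe set, made with RMA and Partek per the submitters' processing notes, with no versions or background option given. RMA brings arrays to a common distribution, so a change of total RNA cannot be seen. Of 45101 probe sets, 64 array controls, 932 with several symbols (4 of these with an Mrps or Mrpl symbol) and 9160 without a symbol were left out. Symbols came from the platform annotation. Array medians ran from 3.65 to 3.76, and the number of arrays limits precision. Changes were fitted with limma 3.58.1 in R 4.3.3 on 18193 genes, with genotype as the only term, two-sided, Benjamini-Hochberg adjusted over all genes. The script was tested on simulated data. Limma p-values set the difference between groups against the spread between pools, which limma draws toward a value shared by all genes.

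Named are Hccs, members past the threshold, the 6 largest values in each direction, the 3 brightest and 3 dimmest, members with probe sets of mixed sign and 1 unadjusted p under 0.05, the Mrps18 genes, and, of each related list, genes that passed and the brightest that did not. Members and lists were chosen with earlier results of these data known. Alternatives were a replicate block, normalization, level filters, probe set choice, eBayes options, array weights and arrays left out. Plots used matplotlib 3.10.9 in Python 3.11.15.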

Additional observations from a re-analysis of the deposited data

Results flagged for a closer look

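Of 60 groups of 5 arrays examined for the members named above and Hccs, 4 had 1 array set far from the others, against about 1 in 20 by chance. Mrpl39, a large-subunit protein without a bacterial counterpart, was low on the arrays numbered 3 of both genotypes, at 12.81 in the control against 12.99 to 13.06 in the other controls, and at 12.81 in the knockout against 12.98 to 13.05 in the other knockouts. Mrpl42 was low in knockout replicate 3, at 13.40 against 13.66 to 13.75. Mrpl14 was high in knockout replicate 1, at 9.17 against 8.74 to 8.84.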

How the results depend on the processing

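No fit gave the median log2 change of the members another sign (0.026 to 0.071 over the 20 alternatives). Mrps9, Mrps23, Mrpl9 and Mrpl15 passed in 8, 7, 7 and 5 of the 20, and with 1 array left out in 2, 1, 1 and 2 of 10. Their adjusted p ran to 0.623, 0.169, 0.232 and 0.241. The number of members that rose was 0 to 6 with 1 array left out, 0 without the arrays numbered 3 of both genotypes, and 2 after median centring. After quantile normalization 1 member, Mrpl58, fell. With the average over the probe sets of a gene Mrpl13 had 0.20 and passed, and with the most variable probe set it had 0.45 and passed, while Mrps9 then had -0.48 and did not pass. Over all genes 73 to 752 rose and 32 to 290 fell with 1 array left out, 26 and 4 without the arrays numbered 3, 475 and 284 among genes above the median level, and 631 and 314 with array weights. The number that fell was 108 after median centring and 76 with that average. With the replicate number as a block, 0 members rose, and over all genes 30 rose and 6 fell. Taken over all genes, same-numbered arrays did not deviate together (correlations from -0.0911 to 0.0767, 1 of 5 controls closest to its own number). Single genes could differ from this, and Mrpl39 was low on both arrays numbered 3. The labels do not say whether same-numbered pools share a litter or a batch, and this was not tested. Hccs kept its direction (-0.48 to -0.60 with 1 array left out), but not its call with the block (-0.55, adjusted p = 0.0735), without the arrays numbered 3 (-0.59) or without control replicate 2 or 3 or knockout replicate 2 or 4 (adjusted p of 0.0511 to 0.0563). The cause of these changes was not tested.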
